A study of Mus musculus with 24 samples.

Results

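The islet hormone genes comprised Ins1 and Ins2, which encode the 2 mouse insulins, Iapp (islet amyloid polypeptide), Gcg (proglucagon), Sst (somatostatin), Ppy (pancreatic polypeptide) and Pyy (peptide YY). They were chosen by gene symbol, without reference to their values, and all 7 were listed among the 17696 genes of the deposited count table. Messenger RNA was sequenced from MIN6 cells, an insulinoma-derived line of mouse β cells, in 24 libraries of 6 groups with 4 libraries each. All cells had received a lentiviral vector, had been selected in puromycin and had been expanded from single clones. The Scr line carried a scrambled sequence, the ZIP line an antisense inhibitor of the microRNA miR-146a-5p, and the OE line a vector overexpressing miR-146a-5p. Each line was left untreated (Scr, ZIP, OE) or exposed for 24 h to a mixture of IL-1β at 5 ng/ml, IFNγ at 100.0 ng/ml and TNFα at 10.0 ng/ml (Scr+Cy, ZIP+Cy, OE+Cy). Because each line came from a clone of its own and the OE vector had a different backbone from the vector shared by Scr and ZIP, the microRNA, the clone and the vector cannot be told apart in any comparison between lines. The comparisons ask how transcripts of the islet hormones differ when the microRNA is inhibited or overexpressed, and how they change with the cytokines in each line.

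In an adult islet each of these hormones marks a cell type. Insulin and islet amyloid polypeptide are made and released together by β cells, glucagon by α cells, somatostatin by δ cells and pancreatic polypeptide by PP cells, while peptide YY is made in some islet cells and in endocrine cells of the gut. Each hormone is translated as a longer precursor, cut by prohormone convertases and stored in dense core granules, and cells of 1 islet type keep the hormone genes of the other types largely silent. Proinflammatory cytokines are known to lower insulin gene expression in β cells.

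The microRNA itself was not measured in these libraries. By quantitative PCR, the paper reports its level as raised in untreated OE cells and unchanged in untreated ZIP cells, relative to Scr. With cytokines, the paper reports a far larger rise over untreated cells in Scr than in ZIP or OE. The mature sequence of miR-146a-5p, from the RefSeq miRNA table, is shown because it is what the lines were built to change, with the seed (bases 2 to 8) in capitals.
miR-146a-5p: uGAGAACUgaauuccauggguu
The matching 7-base site, AGTTCTC, occurred in the annotated 3′ UTR of 2461 of 20981 mouse genes (11.7%) and of 0 of the 7 hormone genes. A missing match says only that these letters were not in these windows.

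Ins1 and Ins2 are near copies, which bears on how far their reads can be told apart. Their coding sequences, 324 and 330 bases without the stop codon, were identical at 300 of 330 aligned positions (90.9%), and the longest identical run was the last 54 bases, which encode most of the insulin A chain. The ends of both coding sequences (transcript annotation, GENCODE M21) are shown with the shared run in capitals and the 15 bases before it in lower case.
Ins1 coding bases 256 to 324: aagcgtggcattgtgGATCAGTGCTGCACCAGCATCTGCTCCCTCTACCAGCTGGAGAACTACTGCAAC
Ins2 coding bases 262 to 330: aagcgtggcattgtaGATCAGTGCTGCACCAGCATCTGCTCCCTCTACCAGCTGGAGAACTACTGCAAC
Reads lying wholly inside such a run could have been split between the genes by the counting, so the split between Ins1 and Ins2 is uncertain to that extent. Ppy and Pyy, which lie next to each other, were identical at 156 of 320 aligned coding positions (48.75%) with no shared run longer than 8 bases.

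The promoters are shown because the genes are switched in different directions below. For each gene the 250 bases before the RefSeq start site (mm10) are given on the strand of the gene. Capitals mark TAAT, the core letters read by homeodomain factors such as PDX1, and CATCTG, a form of the E box read by NEUROD1, each on either strand. For Sst they mark TGACGTCA, the cyclic AMP response element, instead.
Ins1, chr19:52264047-52264296, plus strand: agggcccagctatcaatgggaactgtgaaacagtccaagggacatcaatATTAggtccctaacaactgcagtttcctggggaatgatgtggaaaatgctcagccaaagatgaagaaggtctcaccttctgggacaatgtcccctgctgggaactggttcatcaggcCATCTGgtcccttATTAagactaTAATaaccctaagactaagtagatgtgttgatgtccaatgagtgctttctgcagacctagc
Iapp, chr6:142298175-142298424, plus strand: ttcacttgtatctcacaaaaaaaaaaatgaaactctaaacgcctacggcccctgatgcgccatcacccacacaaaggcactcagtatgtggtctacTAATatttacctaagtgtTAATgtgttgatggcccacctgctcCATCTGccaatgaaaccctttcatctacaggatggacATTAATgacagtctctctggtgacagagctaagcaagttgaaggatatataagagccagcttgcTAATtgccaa
Gcg, chr2:62483654-62483903, minus strand: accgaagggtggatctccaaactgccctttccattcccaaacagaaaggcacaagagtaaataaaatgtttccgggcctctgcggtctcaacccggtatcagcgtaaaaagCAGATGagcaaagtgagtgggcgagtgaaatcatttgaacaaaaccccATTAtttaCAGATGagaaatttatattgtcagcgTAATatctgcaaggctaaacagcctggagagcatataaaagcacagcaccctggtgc
Sst, chr16:23890845-23891094, minus strand: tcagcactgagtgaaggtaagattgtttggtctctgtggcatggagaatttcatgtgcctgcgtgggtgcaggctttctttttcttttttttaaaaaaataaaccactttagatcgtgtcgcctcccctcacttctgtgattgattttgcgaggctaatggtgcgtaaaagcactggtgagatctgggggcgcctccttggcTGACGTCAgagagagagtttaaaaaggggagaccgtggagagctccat
Ppy, chr11:102101320-102101569, minus strand: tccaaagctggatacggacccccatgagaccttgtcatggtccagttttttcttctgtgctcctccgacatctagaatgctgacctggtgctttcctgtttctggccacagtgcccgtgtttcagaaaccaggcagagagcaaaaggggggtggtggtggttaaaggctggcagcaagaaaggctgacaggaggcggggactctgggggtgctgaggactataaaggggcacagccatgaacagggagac
A table entry existed for 6 of the 7 genes; Ins2 is named only. The motifs were counted in windows of 300 bases that ran on 50 bases past the start site, and 58.0% of 32851 such mouse windows held TAAT and 17.2% held CATCTG. The window of Iapp held 5 TAAT (2 of them overlapping) and 1 CATCTG, that of Ins1 held 3 TAAT and 2 CATCTG, of which 1 lay 43 bases past the start and is not in the printed stretch, and that of Gcg held 2 of each. The window of Sst held 1 TAAT and the cyclic AMP element 48 bases before the start, found in 1.79% of windows. A core of the interferon-stimulated response element was in 3.44% of windows and, among the hormone genes, in that of Sst alone, and TTCNNNGAA, the letters read by STAT factors, was in 8.30% of windows and in none of the 6. The windows of Ppy and Pyy held none of the 5 motifs. A match is a description of these letters only.

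The libraries held 26657792 to 37168232 estimated reads (median 30701023). Levels are given as CPM, the reads of a gene per 1000000 reads of the library, scaled by TMM, a factor per library that balances the bulk of genes. Irf1, a direct target of interferon γ, lay at 18.3 to 36.1 CPM in untreated and 359 to 810.4 CPM in treated libraries, so that all treated libraries lay above all untreated ones. Connective tissue markers (Col1a1, Col1a2, Col3a1, Dcn and Lum) summed to 17.6 CPM in Scr replicate 1, 50.9 in ZIP replicate 1 and 57.3 in Scr+Cy replicate 1, and to at most 5.47 CPM in the other 21 libraries. Leaving out these 3 libraries, a choice made after the data were seen, changed the count of hormone genes that passed the test in 1 of 11 comparisons (OE+Cy against Scr, given with that result).

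Together the 7 genes took 1.39 to 4.09% of all reads of a library. The share was 1.60 ± 0.25% in Scr, 2.23 ± 0.055% in ZIP and 3.83 ± 0.20% in OE, and 1.52 ± 0.061%, 2.02 ± 0.11% and 2.81 ± 0.36% in the same lines with cytokines (mean ± SD, n = 4 libraries, as everywhere below). By mean CPM Ins2 ranked 2, Iapp 4 and Ins1 15 of 17696 genes, so the β cell label of MIN6 held. All 10 β cell markers, a list that includes Ins1, Ins2 and Iapp, had reads in every group, which does not speak to their levels or direction. Gcg ranked 1581, Ppy 11912, Sst 13891 and Pyy 15990. Ins1, Ins2, Iapp and Gcg had reads in all 24 libraries, Sst in 21, Pyy in 10 and Ppy in 9.
Per kilobase of the longest GENCODE transcript, Ins2 had the highest level in 5 of 6 groups, for example 11910 CPM per kb in Scr against 4569 for Iapp, 635 for Ins1 and 265 for Gcg. In OE the levels were 20565 for Ins2, 13625 for Iapp, 7225 for Ins1 and 38.1 for Gcg. In OE+Cy Iapp came first, at 13502 CPM per kb against 11786 for Ins2. The annotated Ins1 transcript (1062 bases) runs past the end of the gene as counted, so its level per kb is an underestimate and its place against Iapp in OE is uncertain. Fewer cells expressing a gene and less RNA per cell cannot be told apart in these bulk libraries.

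**Figure D1:**
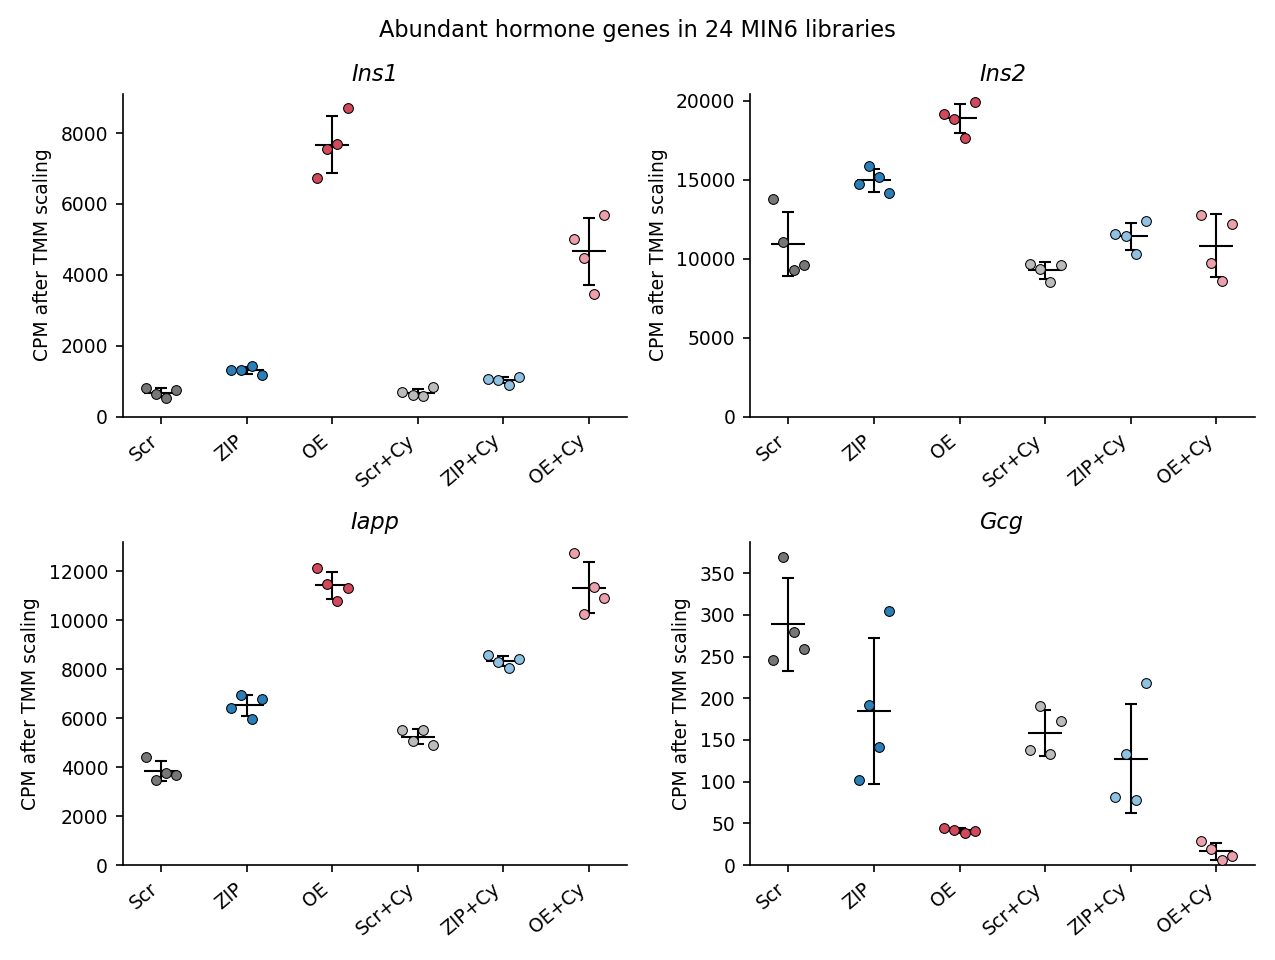
Level of Ins1, Ins2, Iapp and Gcg (CPM, linear axes from 0) in each of 24 libraries by group; points are libraries and bars the group mean ± SD (n = 4). Ins1 stands at 6737 to 8709 CPM in OE against 528 to 811 in Scr, and Gcg at 38.2 to 44.2 CPM against 246 to 369.

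Ins1 (chr19:52264297-52265009, plus strand, mm10) is the retrotransposed copy of the insulin gene, found in mice and rats. In Scr its 4 libraries lay at 811, 623, 528 and 735 CPM. Those of ZIP lay at 1307, 1309, 1429 and 1176 CPM. OE had 6737, 7547, 7700.4 and 8709 CPM, so that the 3 lines did not overlap and OE stood apart from both. Ins1 rose 1.94-fold in ZIP (log2 fold change 0.95 ± 0.14 SE, adjusted p = 7.25e-06) and 11.4-fold in OE (3.51 ± 0.15, adjusted p = 1.76e-15) relative to Scr, by edgeR's quasi-likelihood test with Benjamini-Hochberg adjustment over all 17696 genes, which gave every adjusted p below unless another tool is named. A gene is said to have risen or fallen where this p was under 0.05.
With cytokines, Scr+Cy libraries held 683, 603, 576 and 819.7 CPM, within the range of Scr apart from the last. ZIP+Cy held 1058, 1024, 900.5 and 1126 CPM, all below the lowest ZIP library. OE+Cy held 5001, 4475, 3471 and 5695 CPM, all below the lowest OE library and all above every Scr and ZIP library. Ins1 fell 1.65-fold with cytokines in OE (−0.72 ± 0.14, adjusted p = 1.23e-04). In Scr the value was −0.01 ± 0.14 (adjusted p = 0.989). In ZIP it was −0.35 ± 0.14 (adjusted p = 0.0639), which passed when the replicate number was a term in the model (−0.36, adjusted p = 0.0160) and with DESeq2 (−0.35, adjusted p = 0.0330).
Under cytokines Ins1 was higher in ZIP+Cy than in Scr+Cy (0.62 ± 0.14, adjusted p = 0.00125) and 6.95-fold higher in OE+Cy (2.80 ± 0.15, adjusted p = 7.11e-14). The order of levels was OE, OE+Cy, ZIP, ZIP+Cy, Scr and Scr+Cy, in which the steps from ZIP to ZIP+Cy, without overlap, and from Scr to Scr+Cy, with overlap, did not pass the test.

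Ins2 (chr7:142678656-142679726, minus strand) is the ancestral insulin gene and the more abundant of the pair. Scr libraries held 13768, 11077, 9302 and 9586 CPM. ZIP held 14738, 15850.3, 15142 and 14125 CPM. OE held 19147, 18856, 17630.3 and 19882 CPM, again with no overlap between lines, although Scr replicate 1 came close to ZIP. The rises were smaller than for Ins1: 1.37-fold in ZIP (0.45 ± 0.11, adjusted p = 0.00263) and 1.73-fold in OE (0.79 ± 0.11, adjusted p = 1.76e-06).
Cytokine-treated libraries held 9638, 9318, 8501 and 9606 CPM in Scr+Cy. They held 11560.1, 11451, 10300.3 and 12350.3 CPM in ZIP+Cy. In OE+Cy they held 12743, 9742, 8592 and 12200.3 CPM, overlapping the range of Scr. Ins2 fell with cytokines in ZIP (−0.39 ± 0.11, adjusted p = 0.00951) and 1.74-fold in OE (−0.80 ± 0.11, adjusted p = 1.82e-06), without overlap in either line. In Scr the value was −0.24 ± 0.11 (adjusted p = 0.145), with overlapping libraries.
Under cytokines OE differed less from Scr in Ins2 than without them (change in the difference −0.56 ± 0.15, adjusted p = 0.0113). For ZIP the change in the difference was −0.15 ± 0.15 (adjusted p = 0.929). ZIP+Cy against Scr+Cy gave 0.30 ± 0.11 (adjusted p = 0.0420), and this call was lost when 7 of the 8 libraries were left out in turn (adjusted p up to 0.116). OE+Cy against Scr+Cy gave 0.22 ± 0.11 (adjusted p = 0.0889), with DESeq2 giving 0.25 (adjusted p = 0.0443). OE+Cy against untreated Scr gave −0.02 (adjusted p = 0.922). OE, ZIP and ZIP+Cy followed each other in falling order, and no step between neighbours in the remaining order (ZIP+Cy, Scr, OE+Cy, Scr+Cy) passed the test.

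Iapp (chr6:142298425-142303819, plus strand) encodes the amyloid-forming peptide that β cells store with insulin. Its libraries held 4422, 3469, 3747 and 3694 CPM in Scr. In ZIP they held 6400.5, 6965, 5966.5 and 6780.1 CPM. In OE they held 12129, 11489, 10779 and 11328 CPM, so that the lines formed 3 separate steps. Iapp rose 1.70-fold in ZIP (0.77 ± 0.07, adjusted p = 1.01e-08) and 2.98-fold in OE (1.58 ± 0.07, adjusted p = 9.42e-15).
With cytokines Iapp rose in Scr and ZIP, where neither insulin gene rose. Scr+Cy held 5510.1, 5051, 5533 and 4908 CPM, and ZIP+Cy 8577, 8311, 8062 and 8403 CPM, each above all untreated libraries of the line. Iapp rose 1.37-fold in Scr (0.45 ± 0.07, adjusted p = 4.29e-05) and 1.28-fold in ZIP (0.35 ± 0.07, adjusted p = 6.14e-04). OE+Cy held 12740.0, 10270 and 11367 CPM in replicates 1 to 3 and 10936 CPM in replicate 4, overlapping OE, with a change of −0.01 ± 0.07 (adjusted p = 0.913).
Under cytokines Iapp exceeded its Scr+Cy level by 0.67 ± 0.07 log2 units in ZIP+Cy (adjusted p = 9.75e-08) and, more widely, by 1.11 ± 0.07 in OE+Cy (adjusted p = 5.08e-12). The step between OE and OE+Cy did not pass the test, and ZIP+Cy, ZIP, Scr+Cy and Scr followed in steps that each passed the test.

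Gcg (chr2:62474530-62483653, minus strand) encodes the precursor of glucagon and of the glucagon-like peptides, and was the one hormone gene of another islet cell type with reads in every library of every group. Its libraries held 246, 369, 279 and 259 CPM in Scr. ZIP spread widely, at 101, 191, 141 and 304 CPM. OE held 44.2, 42.2, 38.2 and 41.1 CPM, below every library of the other lines. Gcg fell 6.96-fold in OE (−2.80 ± 0.36, adjusted p = 5.89e-07), the one hormone gene lower there than in Scr. In ZIP the value was −0.64 ± 0.34 (adjusted p = 0.166), and without ZIP replicate 4, its highest library, it was −0.996 (adjusted p = 0.0332).
With cytokines Gcg libraries held 138, 190.3, 134 and 173 CPM in Scr+Cy, all below the lowest Scr library. They held 81.3, 133, 78.2 and 218 CPM in ZIP+Cy, again with replicate 4 highest. In OE+Cy they held 29.0, 19.0, 6.44 and 10.9 CPM, all below OE. Gcg fell 2.55-fold in OE (−1.35 ± 0.37, adjusted p = 0.00413). In Scr the value was −0.86 ± 0.34 (adjusted p = 0.0835), and it passed with the replicate number in the model (−0.88, adjusted p = 0.0350). In ZIP it was −0.53 ± 0.34 (adjusted p = 0.272).
Each of the 12 pairs of libraries with the same replicate number had less Gcg with cytokines, with log2 differences of −1.06 to −0.58 in Scr, −0.85 to −0.32 in ZIP and −2.56 to −0.61 in OE. OE+Cy was lower than Scr+Cy (−3.29 ± 0.38, adjusted p = 9.64e-08) and 17.7-fold lower than untreated Scr (−4.15). No step between neighbours in the order Scr, ZIP, Scr+Cy and ZIP+Cy passed the test, and OE and OE+Cy lay below them.

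**Figure D2:**
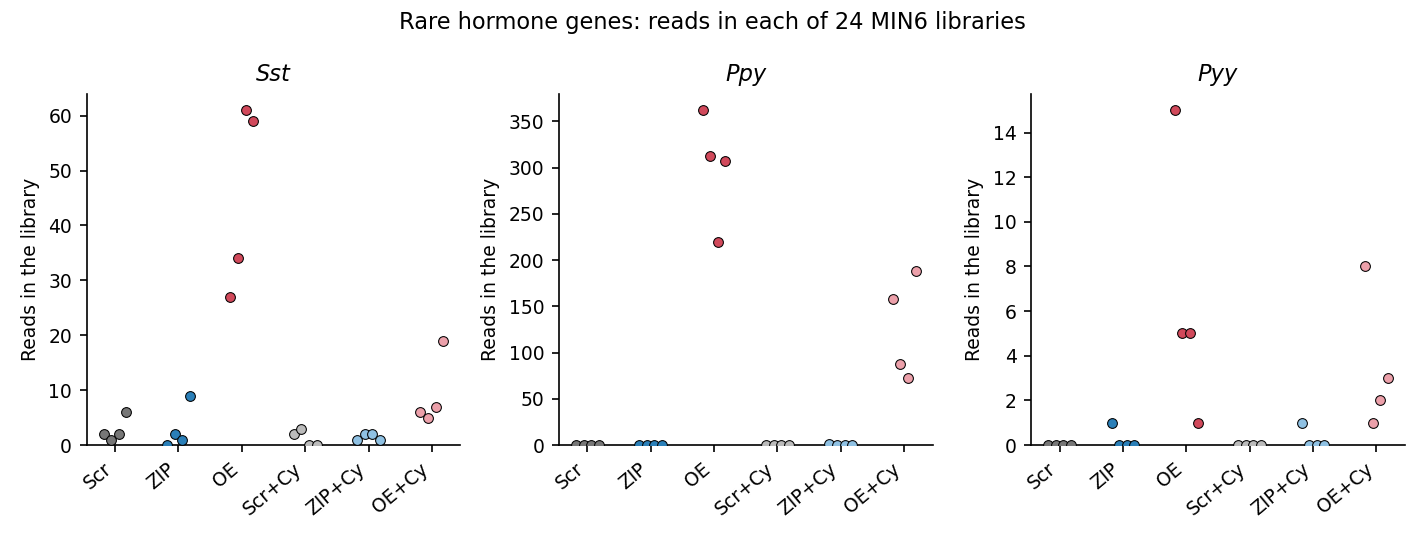
Estimated reads of Sst, Ppy and Pyy (linear axes from 0) in each of 24 libraries by group; points are libraries. Sst reaches 27 to 61 and Ppy 219 to 362 reads in the OE libraries, against at most 9 and 1 in any Scr or ZIP library with or without cytokines.

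Sst, Ppy and Pyy were near or at 0 outside the OE line. Sst (chr16:23889581-23890844, minus strand), the δ cell hormone that restrains insulin and glucagon release, had 2, 1, 2 and 6 reads in Scr and 0, 2, 1 and 9 in ZIP. OE had 27, 34, 61 and 59 reads, or 0.816, 0.925, 1.68 and 1.93 CPM, above all other untreated libraries. Sst rose in OE (3.97 ± 0.71, adjusted p = 4.90e-05), to 1.34 ± 0.55 CPM. The Scr mean of 0.0828 CPM lay under the 0.0885 CPM that 3 reads would give, so the fitted fold of 15.7 is imprecise.
With cytokines Sst had 2, 3, 0 and 0 reads in Scr+Cy. ZIP+Cy had 1, 2, 2 and 1 reads, and OE+Cy had 6, 5, 7 and 19. All OE+Cy libraries lay below all OE libraries. Sst fell 4.47-fold with cytokines in OE (−2.16 ± 0.62, adjusted p = 0.00604) and stayed above Scr+Cy (2.75 ± 0.83, adjusted p = 0.00723).
Ppy (chr11:102099931-102101319, minus strand), the PP cell hormone, had 362, 313, 219 and 307 reads in OE, or 8.89 ± 2.15 CPM. It had no read in any Scr, ZIP or Scr+Cy library and 1 read in ZIP+Cy replicate 1. Against the level that 3 reads per library would give (0.081 to 0.115 CPM), Ppy was at least 100.5-fold higher in OE than in Scr (adjusted p = 1.60e-09). OE+Cy had 158, 88, 72 and 188 reads, or 4.11 ± 1.74 CPM, below every OE library. Ppy fell 2.16-fold with cytokines in OE (−1.11 ± 0.29, adjusted p = 0.00540) and was at least 42.3-fold higher in OE+Cy than in Scr+Cy (adjusted p = 1.34e-08).
Pyy (chr11:102106676-102107832, minus strand) is the neighbour of Ppy, with starts 6745 bases apart. It had 15, 5, 5 and 1 reads in OE, 8, 1, 2 and 3 in OE+Cy, 1 in a single library each of ZIP and ZIP+Cy, and none in Scr or Scr+Cy. These few reads put Pyy at least 2.15-fold higher in OE than in Scr (adjusted p = 0.00128) and at least 1.20-fold higher in OE+Cy than in Scr+Cy (adjusted p = 0.00583). Both rested largely on replicate 1: without it OE held 0.102 ± 0.060 CPM (at least 1.16-fold, adjusted p = 0.00546), and OE+Cy 0.0627 ± 0.029 CPM, which is under the 0.0972 CPM that 3 reads would give, so that no fold can be stated. OE+Cy against OE gave −0.70 ± 0.80 (adjusted p = 0.513), a difference not detectable at this depth.

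Counted over the 7 genes, 3 were higher and 0 lower in ZIP than in Scr, where 28.3% of all genes passed (13.5% higher, 14.8% lower). In OE 6 were higher and 1 lower, against 50.1% of all genes (24.5% higher, 25.6% lower). With cytokines 1 gene was higher and 0 lower in Scr, against 17.8% (10.5% higher, 7.33% lower). In ZIP 1 was higher and 1 lower, against 26.4% (13.6% higher, 12.8% lower), and in OE 0 were higher and 5 lower, against 44.6% (23% higher, 21.5% lower).
Between treated lines 3 were higher and 0 lower in ZIP+Cy than in Scr+Cy, against 28.1% (12.9% higher, 15.1% lower). In OE+Cy 5 were higher and 1 lower, against 53.4% (26% higher, 27.4% lower). Against untreated Scr, 3 genes differed in ZIP+Cy (Ins1 0.61, Iapp 1.12 and Gcg −1.18 in log2), where 40.8% of all genes did, and 6 in OE+Cy (all but Ins2), where 59.5% did. In this last comparison Sst gave 1.81 (adjusted p = 0.0383), and 1.66 (adjusted p = 0.0601) without the 3 libraries raised in connective tissue markers, which left 5 genes. The call was also lost without Scr replicate 1, 2 or 3 (1.53 to 1.73) or OE+Cy replicate 4 (1.27). These comparisons share control libraries, so their counts do not support each other.

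**Figure D3:**
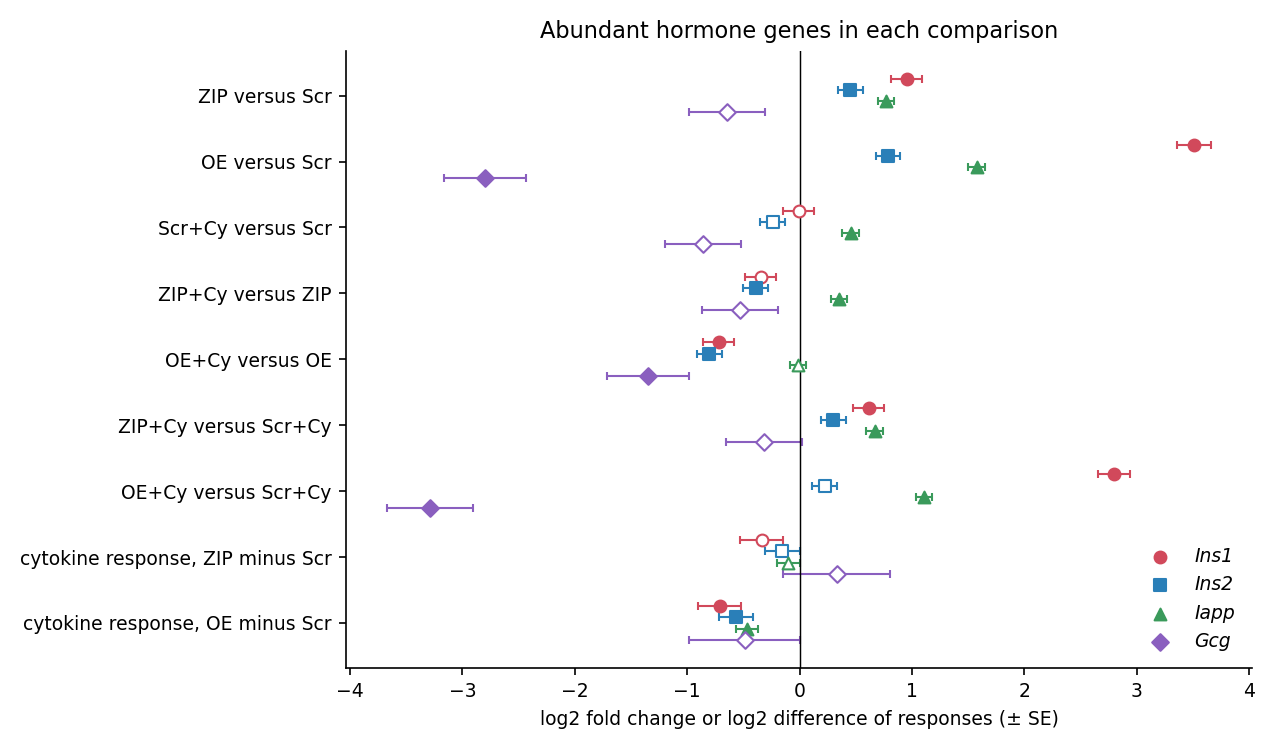
Log2 fold change ± SE of Ins1, Ins2, Iapp and Gcg in each comparison, and the log2 difference between lines in the response to cytokines (edgeR, 24 libraries). In OE against Scr Ins1 (3.51) and Gcg (−2.80) lie farthest from 0 on opposite sides, and with cytokines in OE Iapp stays at −0.01 while the other 3 fall.

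The responses to cytokines were compared between lines as a difference of differences. In OE the response was lower than in Scr for Ins1 (−0.71 ± 0.19, adjusted p = 0.0104), Ins2 (−0.56 ± 0.15, adjusted p = 0.0113) and Iapp (−0.47 ± 0.10, adjusted p = 0.00198), so 0 of the 7 genes had a higher and 3 a lower response, where 20% of all genes differed (9.64% higher, 10.3% lower). For Gcg the difference was −0.49 ± 0.50 (adjusted p = 0.551), and for Sst −1.22 ± 1.27 (adjusted p = 0.562). Ppy and Pyy, with no reads in Scr, gave no estimate.
Replicate by replicate, Ins1 moved with cytokines by −0.25, −0.05, 0.12 and 0.16 log2 units in Scr and by −0.43, −0.75, −1.15 and −0.61 in OE, without overlap. Ins2 moved by −0.51, −0.25, −0.13 and 0.00 in Scr and by −0.59, −0.95, −1.04 and −0.70 in OE. Iapp moved by 0.32, 0.54, 0.56 and 0.41 in Scr and by 0.07, −0.16, 0.08 and −0.05 in OE. In each of these 3 genes every OE value lay below every Scr value. The 3 genes were those that had passed the test above on the same libraries, so this describes the spread and adds no support. How many of all genes were separated in this way was not counted.
In ZIP the response differed from that in Scr for 0 of the 7 genes with edgeR and with DESeq2 (0 at an unadjusted p under 0.05 with edgeR, and 1 with the replicate number in the model, Ins1 at −0.35, unadjusted p = 0.0355, adjusted p = 0.509), where 0.0565% of all genes differed. The differences were −0.34 ± 0.19 for Ins1 (adjusted p = 0.843), −0.15 ± 0.15 for Ins2 (0.929), −0.10 ± 0.10 for Iapp (0.927) and 0.33 ± 0.48 for Gcg (0.971).

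The balance within each library was read from ratios of reads, which do not depend on depth or scaling. Ins1 made up 5.85 ± 0.86% of all insulin reads in Scr, 8.02 ± 0.47% in ZIP and 28.9 ± 2.08% in OE, where it ranged from 26.0 to 30.5%. With cytokines the shares were 6.73 ± 0.79%, 8.25 ± 0.16% and 30.1 ± 1.85%. OE was thus the line in which Ins1 approached Ins2 most closely, at 2.47 Ins2 reads per Ins1 read against 16.2 in Scr and 11.5 in ZIP.
Differences in the ratio were tested by an exact two-sided permutation test over libraries, whose smallest p with 4 against 4 is 0.0286. Adjusted over 7 comparisons, of which 4 reached that p for each ratio, it became 0.05. The log2 ratio of Ins2 to Ins1 differed from Scr by −0.50 in ZIP and −2.72 in OE, and from Scr+Cy by −0.32 in ZIP+Cy and −2.58 in OE+Cy, each without overlap and at that smallest exact p (adjusted 0.05). Within a line cytokines moved it by −0.22 in Scr (exact p = 0.143, adjusted 0.2), −0.05 in ZIP (exact p = 0.371, adjusted 0.429) and −0.08 in OE (exact p = 0.429, adjusted 0.429). In Scr the share of Ins1 was higher with cytokines in all 4 same-numbered pairs, and an exact sign-flip permutation test over pairs, which cannot go below 0.125, gave p = 0.125.
The ratio of Iapp to Ins1 behaved otherwise. It was 5.74 in Scr, 5.00 in ZIP and 1.49 in OE, and 7.90, 8.14 and 2.46 with cytokines. In log2 it was higher by 0.70 in ZIP+Cy than in ZIP and by 0.72 in OE+Cy than in OE, at the smallest exact p (adjusted 0.05), and by 0.46 in Scr+Cy than in Scr (exact p = 0.0571, adjusted 0.08). Against Scr it differed by −0.20 in ZIP (exact p = 0.286, adjusted 0.333) and by −1.94 in OE, and against Scr+Cy by 0.04 in ZIP+Cy, with overlapping libraries, and by −1.68 in OE+Cy, both OE values without overlap at the smallest exact p (adjusted 0.05).

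**Figure D4:**
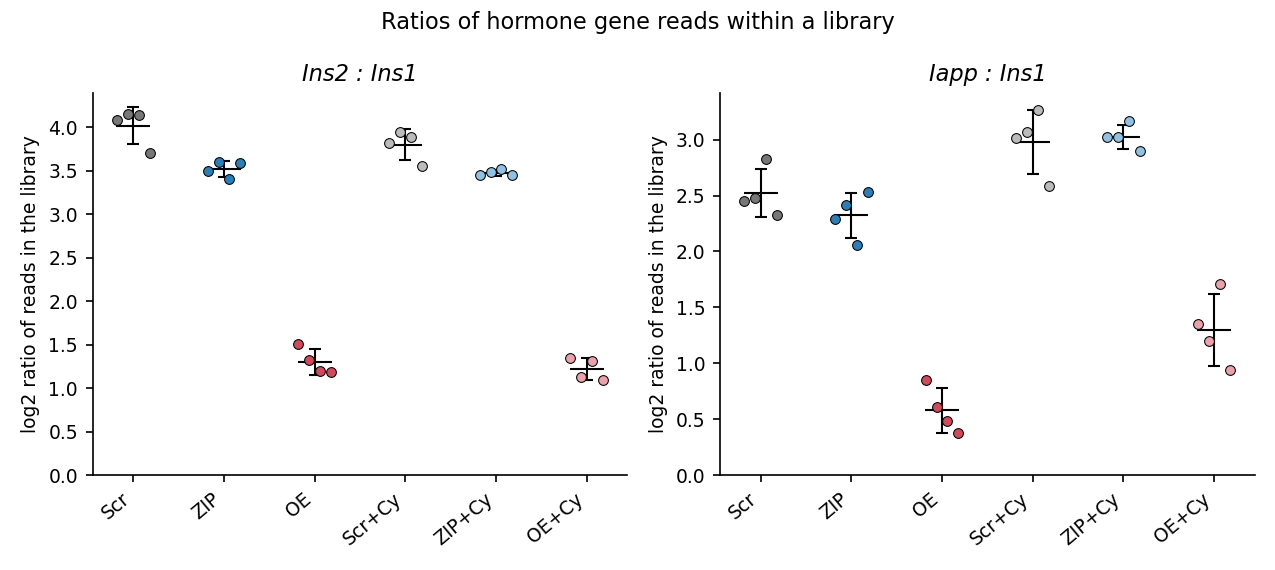
Log2 ratio of reads of Ins2 and of Iapp to reads of Ins1 in each of 24 libraries by group. Points are libraries and bars the group mean ± SD (n = 4). The OE and OE+Cy libraries lie lowest in both panels, with group means of 1.30 and 1.22 for Ins2 and 0.58 and 1.30 for Iapp.

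The markers of other cell types were read in the same libraries, and their part in the hormone values was not tested. Markers of α cells did not all move in the direction of Gcg. Ttr, abundant in α cells and also expressed in β cell lines, was at 1497 ± 185 CPM in Scr, 4061 ± 539 in ZIP and 735.5 ± 253 in OE, a rise in ZIP (1.44) and a fall in OE (−1.03). Irx1 and Irx2, α cell transcription factors, rose in OE, from 0.00781 to 1.05 ± 0.57 CPM and from 0 to 2.86 ± 0.77 CPM, while Gcg fell.
Of the δ cell markers Rbp4 rose in OE together with Sst (1.98, from 3.59 ± 0.74 to 14.2 ± 2.75 CPM) and fell with cytokines there (−1.30). Ghsr, the ghrelin receptor, also rose in OE (2.04, adjusted p = 0.00129), and with cytokines there it gave 0.75 (adjusted p = 0.168). Hhex, the δ cell transcription factor, was not listed. The list summed to 2.31 to 5.02 CPM in Scr and ZIP and 13.4 to 18.6 CPM in OE, and to 1.5 to 4.36 and 5.43 to 10.1 CPM with cytokines.
Duct cell markers (Krt19, Krt7, Sox9 and Muc1) summed to 2.72 to 12.3 CPM in the Scr and ZIP lines and to 349 to 494 CPM in OE and OE+Cy. Nearly all of this was Krt7 (4.38 ± 2.08 CPM in Scr and 409 ± 47.9 in OE), with Krt19 at 0 in all Scr and ZIP libraries and 12.4 to 24.2 CPM in OE and OE+Cy. Sox9, a defining duct factor, was at 0 in ZIP, ZIP+Cy, OE and OE+Cy, at 0.00674 CPM in Scr and at 0.277 CPM in Scr+Cy. Of 5 acinar markers Cpa1, Prss2 and Ptf1a were not listed and the others summed to at most 0.248 CPM. Immune markers summed to at most 4.52 CPM, blood markers to at most 7.70 CPM and skeletal muscle markers to at most 2.01 CPM, and no fat marker was listed.

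Of 26 transcription factors known to act on hormone genes, 22 were listed: 7 were higher and 5 lower in ZIP than in Scr, and 8 higher and 10 lower in OE, where 28.3% and 50.1% of all genes passed. Of the 22, 19 averaged at least 1 CPM, a level at which 35.4% of all genes passed in ZIP and 60.5% in OE. With cytokines 4 were higher and 3 lower in Scr, 3 and 4 in ZIP, and 5 and 9 in OE, where 17.8%, 26.4% and 44.6% of all genes passed. The same shares apply to the lists that follow. Over all genes the median log2 fold change was within 0.04 of 0 in every comparison, and the median of these factors was −0.03 in ZIP and −0.06 in OE.
Pdx1, which activates the insulin, Iapp and somatostatin genes, was at 824 ± 36.0 CPM in Scr, 932 ± 61.4 in ZIP and 627 ± 34.5 in OE. It rose in ZIP (0.18, adjusted p = 0.0316) and fell in OE (−0.39, adjusted p = 7.65e-06), where Ins1, Ins2 and Iapp were highest, and fell again with cytokines in OE to 337 ± 22.6 CPM (−0.90, adjusted p = 2.08e-11). Pdx1 also fell with cytokines in ZIP (−0.23, adjusted p = 0.00608) and gave −0.10 in Scr (adjusted p = 0.288). Mafa, an insulin gene activator of mature β cells, fell in ZIP (−0.43), in OE (−0.55) and with cytokines in OE (−1.0, from 716 ± 51.2 to 358 ± 62.4 CPM). Mafa also fell with cytokines in Scr (−0.41, adjusted p = 0.0109) and gave −0.19 in ZIP (adjusted p = 0.231). Pax6, which binds the glucagon, insulin and somatostatin promoters, fell in OE (−0.47, adjusted p = 6.22e-05). Cytokines lowered Pax6 in Scr (−0.25, adjusted p = 0.0445), ZIP (−0.47, adjusted p = 2.01e-04) and OE (−0.48, adjusted p = 6.05e-05). Insm1, a zinc finger factor of endocrine cells, rose in ZIP (0.33, adjusted p = 0.00302) and gave 0.18 in OE (adjusted p = 0.0598).

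Of 17 genes that process and pack the hormones, 6 were higher and 0 lower in ZIP than in Scr (median 0.26; 28.3% of all genes passed), and 7 higher and 4 lower in OE (median 0.30; 50.1%). All 17 averaged at least 1 CPM, a level at which 35.4% of all genes passed in ZIP and 60.5% in OE. With cytokines 0 were higher and 4 lower in Scr (17.8% of all genes) and in ZIP (26.4%), and 0 higher and 11 lower in OE (median −0.45; 44.6%). Of all genes averaging at least 1 CPM, 22.2% passed with cytokines in Scr, 33.8% in ZIP and 55.3% in OE. Scg2, a granin of dense core granules, fell with cytokines in OE from 6492 ± 517 to 3016 ± 143 CPM (−1.11, adjusted p = 2.60e-12) and in Scr (−0.62, adjusted p = 1.52e-07). Chga, another granin, fell with cytokines in OE (−0.50, adjusted p = 3.59e-05), and Chgb, a further granin, fell in OE against Scr (−0.66, adjusted p = 0.00535). Ero1b, the endoplasmic reticulum oxidase that helps to fold proinsulin, moved in opposite directions in the 2 lines: it rose in ZIP from 3605 ± 166 to 5980 ± 379 CPM (0.73, adjusted p = 4.10e-09) and fell in OE to 2220 ± 116 CPM (−0.70, adjusted p = 2.60e-09).

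Among 14 listed of 18 receptors for these hormones, 4 were higher and 0 lower in ZIP (28.3% of all genes passed) and 7 higher and 5 lower in OE (50.1%), so that the share in ZIP was that of all genes. With cytokines 1 was higher and 3 lower in Scr, 0 and 4 in ZIP, and 1 and 4 in OE. Insr, the insulin receptor, fell in OE from 115 ± 5.20 to 84.3 ± 3.10 CPM (−0.45, adjusted p = 3.61e-05). Igf1r, the receptor for insulin-like growth factor 1, rose in OE from 7.53 ± 2.04 to 430 ± 39.1 CPM (5.83, adjusted p = 1.05e-15) and in ZIP to 16.7 ± 2.71 CPM (1.14, adjusted p = 3.96e-04). Glp1r, the receptor for glucagon-like peptide 1 made from the Gcg precursor, rose in ZIP (0.50) and OE (0.46) and fell with cytokines in OE (−0.77, adjusted p = 6.67e-07). Sstr3, a somatostatin receptor, rose in OE (0.56, adjusted p = 5.55e-04) and fell there with cytokines (−0.79, adjusted p = 1.38e-05).

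Of the 22 listed genes for other peptide hormones, 6 were higher and 1 lower in ZIP (28.3% of all genes passed, a like share) and 10 higher and 4 lower in OE (50.1%). With cytokines 0 were higher and 2 lower in Scr, 1 and 4 in ZIP, and 1 and 9 in OE. Npy, the neuropeptide related to Ppy and Pyy, fell in OE, where they rose, from 1911 ± 104 to 802 ± 69.1 CPM (−1.25, adjusted p = 1.54e-09), and like Ppy fell there with cytokines, to 282 ± 53.2 CPM (−1.51, adjusted p = 1.19e-10). Cck, the gut and brain peptide cholecystokinin, rose in ZIP (1.17, adjusted p = 0.00364) and fell with cytokines in OE (−1.38, adjusted p = 4.74e-04). Sct, secretin, fell in both ZIP (−1.0, adjusted p = 0.00982) and OE (−1.04, adjusted p = 0.00392). Nucb2, the nesfatin precursor, rose in ZIP (0.82) and OE (0.69) and fell with cytokines in OE (−1.11, adjusted p = 8.01e-06).

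The genes around each hormone gene were read for the 3 nearest listed genes on each side, 36 in all without the hormone genes. In OE 15 of them were higher and 8 lower than in Scr, and in ZIP 7 were higher and 3 lower, where 50.1% and 28.3% of all genes passed, so the share in ZIP was that of all genes. Igf2, the growth factor gene near Ins2, did not follow it in OE: it was at 8916 ± 542 CPM in Scr, 12020.0 ± 909 in ZIP and 4042 ± 206 in OE, a rise in ZIP (0.43, adjusted p = 3.33e-05) and a fall in OE (−1.14, adjusted p = 1.51e-12). Th, tyrosine hydroxylase, on the other side of Ins2, rose in ZIP (2.15, adjusted p = 4.57e-09) and OE (1.89, adjusted p = 1.11e-08) from 30.9 ± 10.4 CPM to 137.5 ± 22.5 and 115 ± 13.1 CPM. Close to Gcg, Dpp4, whose product cleaves glucagon-like peptide 1, fell in OE (−0.62, adjusted p = 1.11e-07) and with cytokines in Scr (−0.43, adjusted p = 9.90e-05). The RNA sensor gene Ifih1 on the other side of Gcg rose with cytokines in Scr from 0.528 ± 0.115 to 40.5 ± 6.08 CPM (6.25, adjusted p = 4.25e-16) and in OE (6.17, adjusted p = 1.99e-17), where Gcg fell. The neighbours of Iapp rose with it in OE: Slco1a6 (1.94), Slco1a5 (2.11), Golt1b (0.41), Pyroxd1 (0.30), Recql (0.19) and, at 0.118 CPM over all libraries, Slco1a1 (2.49, adjusted p = 0.0305). Within 5 Mb of Iapp 35 genes averaged at least 1 CPM, of which 17 were higher and 4 lower in OE than in Scr. At that level 60.5% of all genes passed.
Around Ins1 most genes went the other way from Ins1. Within 5 Mb of its start 25 genes averaged at least 1 CPM: 22 were lower and 0 higher in ZIP than in Scr (median −0.47), and 20 lower and 2 higher in OE (median −0.47; the 2 were Add3 and Dusp5, named after their values were seen). Over the 12670 genes at that level 35.4% passed in either direction in ZIP and 60.5% in OE, with medians of −0.01 and 0.00. Under cytokines the counts were 0 higher and 22 lower in ZIP+Cy (median −0.49) and 1 and 22 in OE+Cy (median −0.58) against Scr+Cy. With cytokines within Scr they were 3 and 3. Xpnpep1, an aminopeptidase gene close to Ins1, fell in ZIP (−0.63 ± 0.05) and OE (−0.25 ± 0.05), and Sorcs1, a sorting receptor gene on the other side, fell in OE (−3.90 ± 0.45). Nearer to Ins1, AA387883, averaging under 1 CPM, rose in OE as Ins1 did (1.87, adjusted p = 0.0025), from 0.116 to 0.436 CPM. Among other neighbours under 1 CPM, 1700054A03Rik rose in OE (3.38, adjusted p = 0.0074), from 0.0139 to 0.188 CPM. Cfap58 (1.94, adjusted p = 0.0704) and Sorcs3 (1.77, adjusted p = 0.0552) did not pass there.

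**Figure D5:**
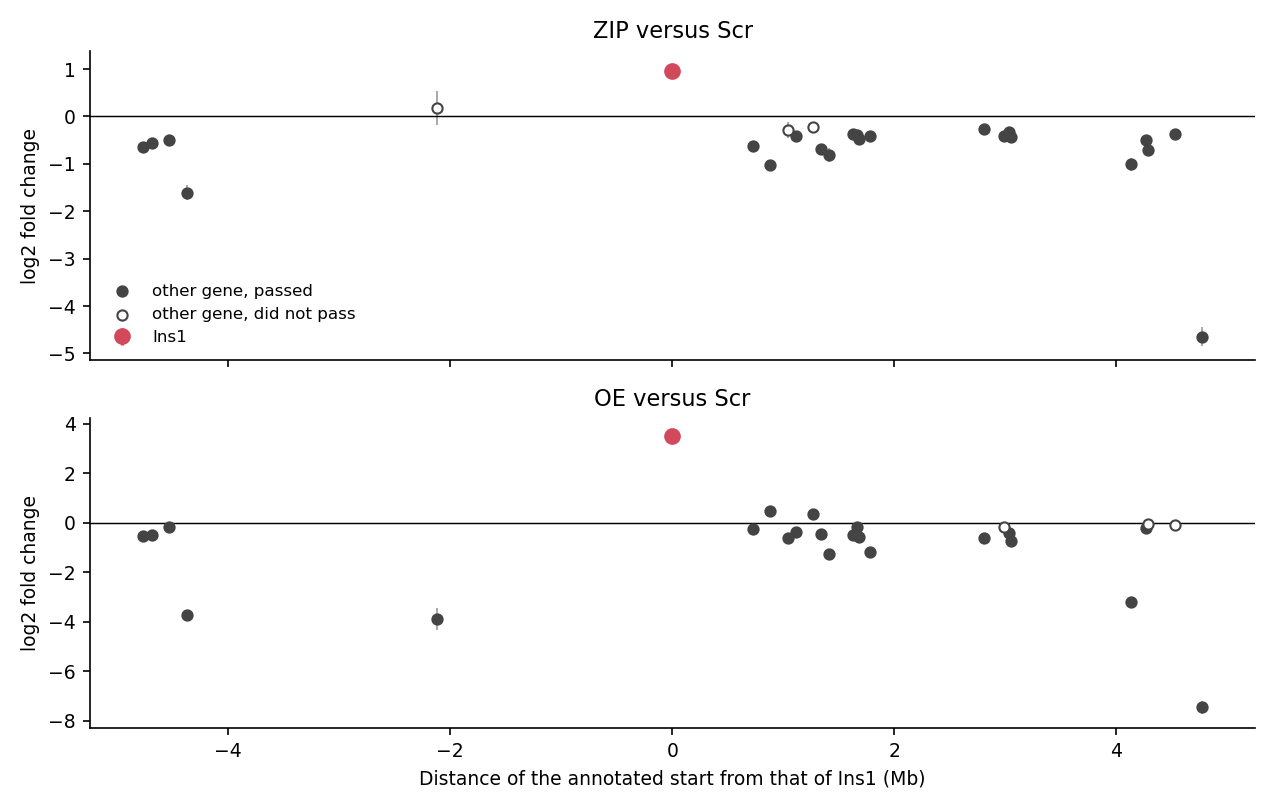
Log2 fold change of genes averaging at least 1 CPM against the distance (Mb) of their annotated start from that of Ins1, for ZIP against Scr and OE against Scr; each point is a gene and Ins1 is marked. Of the 25 neighbours 22 are lower in ZIP and 20 in OE, while Ins1 lies at 0.95 and 3.51.

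The genes most like each hormone gene were found by the root mean square difference of log2 CPM, centred per gene, over the 24 libraries, among 9734 genes averaging at least 10 CPM. All libraries share their line and treatment groups, so likeness here is likeness across 6 group means. For Ins1 they were Ripk4 (0.36), Nap1l2 (0.40) and Col6a6 (0.44), where the median gene lay at 1.39. Ripk4, for example, was at 4.87 CPM in Scr, 8.36 in ZIP and 36.1 in OE. For Ins2 they were Cmas (0.14), Gnas (0.15) and Msi2 (0.16) against a median of 0.43, and for Iapp Mtmr11 (0.16), Tmod3 (0.19) and Dnaic2 (0.21) against 0.62. For Gcg they were Nrcam (0.46), Nptx2 (0.49) and Slc39a8 (0.50) against 1.55. Nrcam, for example, fell from 552 CPM in Scr to 79.5 in OE and 28.2 in OE+Cy. For Ppy they were Krt18 (0.59), Krt7 (0.60) and F5 (0.71) against 3.09, of which Krt18 stood at 0.385 CPM in Scr and 63.5 in OE. Among Ins1, Ins2, Iapp and Gcg themselves, Ins2 and Iapp were closest (0.52), followed by Ins1 and Iapp (0.92) and Ins1 and Ins2 (1.17), while Ins1 and Gcg lay 2.76 apart.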

How the data were processed

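Messenger RNA of MIN6 cells was sequenced in 24 libraries, and the submitters' processing notes name FastQC, STAR 2.7.8a, Partek 11.0.24.0204, DESeq2 and the mm10 build, while the study's methods give other versions of STAR and Partek. The methods describe alignment to mm10 and counting on RefSeq transcripts, with genes under 10 reads in total removed; use of strand is not given in the sources used here. The authors deposited 2 tables. The estimated counts per gene are not whole for 30.3% of values and are written with at most 6 digits, so that large counts are rounded. The second table holds the deposited normalized signal, which equals the estimated counts divided by 1 factor per library, and served only for ratios. Every listed gene had at least 10 reads in total.

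Counts were rounded and fitted with edgeR 4.0.16 (R 4.3.3; TMM, glmQLFit and glmQLFTest) as 1 model of 6 group means over all 17696 genes, with Benjamini-Hochberg adjustment and a threshold of 0.05. SE was derived from the fold change and the F statistic. The fit was tested on simulated counts. Ratios were tested by exact permutation in scipy 1.17.1. The labels number the replicates without saying what a number shares, and nothing states that libraries came from separate cultures, so p-values measure the spread between these libraries. Deviations from the group means of same-numbered libraries correlated in every pair at 0.279 to 0.612 between untreated and treated libraries of a line and at 0.163 to 0.467 between ZIP+Cy and Scr+Cy (9738 genes), but not in every pair between ZIP or OE and Scr or between OE+Cy and Scr+Cy. Gene coordinates are those of the deposited table (mm10), coding sequences, UTRs and transcript lengths are from GENCODE M21, and promoters and the miRNA are from RefSeq.

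The hormone genes, the gene lists and the alternatives were chosen with earlier results of these data known. Named genes were the 7 members, the 3 genes most like each, the 3 nearest genes on each side, the 4 most abundant genes of each list and Irf1. Alternatives were DESeq2 1.42.0, its size factors, scaling without the hormone genes, a filter on low counts, fits of only the groups compared, a replicate block, the study's thresholds (fold change of at least 1.5 and unadjusted p under 0.05), leaving out each library and leaving out 3 libraries. Floors of 3 reads cover counting error only. Some marker genes and the summed levels of the lists that hold them are not reported here.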

Additional observations from a re-analysis of the deposited data

Results flagged for a closer look

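The cytokine response of 3 hormone genes differed between the OE and Scr lines by a test of the difference itself (edgeR, Benjamini-Hochberg adjustment over all genes). The response in OE minus that in Scr was −0.71 for Ins1 (adjusted p = 0.0104), −0.56 for Ins2 (adjusted p = 0.0113) and −0.47 for Iapp (adjusted p = 0.00198), on the log2 scale. At the study's thresholds Ins1 alone passed, since Ins2 and Iapp differed by less than 1.5-fold. The calls held under the other alternatives that were run, and the values without 1 library in turn ranged from −0.84 to −0.60, from −0.69 to −0.49 and from −0.54 to −0.42.

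Sst in OE+Cy replicate 4, at 0.577 CPM, lay far from the other 3 libraries of the group, at 0.169 to 0.221 CPM. The test for a lone distant library (Dixon's, at the 95% level) was made for 32 combinations of gene and group, and chance alone marks about 1 in 20. Without that library the fall of Sst in OE+Cy against OE was larger (−2.73), and OE+Cy against untreated Scr no longer passed (1.27, adjusted p = 0.180).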

How the results depend on the processing

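Of 11 counts of hormone genes that passed, 3 moved by over 1.5 times in an alternative. The cytokine count in Scr was 1 and became 2, with Gcg, in the replicate block (−0.88, adjusted p = 0.0350) and when only the groups compared were fitted (−0.85, adjusted p = 0.00160), and the cytokine count in ZIP was 2 and became 0 at the study's thresholds, since Ins2 and Iapp changed by less than 1.5-fold. In Scr the count at those thresholds stayed at 1, but the gene changed. Iapp, up 1.37-fold, no longer passed, and Gcg passed as lower (−0.86, unadjusted p = 0.0179 with edgeR). At those thresholds, applied to the differences of responses after the data were seen, the count for OE minus Scr was 1 in place of 3. The replicate block and the fit of only the groups compared also gave a call for Ins1 in ZIP+Cy against ZIP (−0.36 and −0.34), and the block one for Ins2 in OE+Cy against Scr+Cy (0.21, adjusted p = 0.0485), whose libraries were not shown to be paired, as did leaving out OE+Cy replicate 3 (0.33, adjusted p = 0.0120). The block changed no other call. The filter on low counts removed Pyy, which took 1 from the counts of OE against Scr and of OE+Cy against Scr+Cy and Scr. With each library left out in turn the counts ranged from 3 to 4 (ZIP against Scr), 2 to 3 (ZIP+Cy against Scr+Cy), 6 to 7 (OE+Cy against Scr+Cy) and 5 to 6 (OE+Cy against Scr), and stayed at 7, 1, 2, 5, 3, 0 and 3 elsewhere. Sst in OE+Cy against Scr lost its call without Scr replicate 1, 2 or 3 or OE+Cy replicate 4 (1.27 to 1.73). Values near 0 changed sign: Ins1 with cytokines in Scr (0.0038 with only the groups compared, 0.0838 without the 3 libraries raised in connective tissue markers, −0.119 to 0.0928 without 1 library), Iapp in OE (−0.0743 to 0.0196), Pyy in OE (−1.53 to 0.15), Ins2 in OE+Cy against Scr (0.0025 with DESeq2 and with its size factors, 0.12 without the 3 libraries, −0.10 to 0.12 without 1 library) and the Gcg response in ZIP minus Scr (−0.0586 to 0.68). The cause of these shifts was not tested. Of the other alternatives for single genes, 363 kept their direction and side of the threshold. Depth limits Sst, Ppy and Pyy outside OE, where most libraries held 0 to 3 reads.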
